A study of Mus musculus with 16 samples.

Results

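The variable (V) segments of the T-cell receptor alpha chain were described in sorted thymocytes of mice that carry a rearranged receptor transgene. The members were all genes whose symbol begins with Trav, plus Trac, the gene of the constant region: 128 Trav genes and Trac, 129 of the 46517 gene identifiers in the deposited files. On GRCm38 the Trav genes lie on the plus strand of chromosome 14 between 52427928 and 53977678, and Trac lies after them at chr14:54220521-54224206. Of the 128, 108 are annotated as functional V genes and 20 as V pseudogenes.

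Live CD4+CD8+ cells were sorted from the thymi of 16 mice aged 6 to 7 weeks, with 1 library per mouse. All were NOD-AI4 mice, that is, non-obese diabetic (NOD) mice with the AI4 T-cell receptor transgene. The 3 groups were NOD-AI4-60A mice with an added Nfkbid transgene (5 mice, 3 male and 2 female), NOD-AI4-Nfkbid-/- mice (5 mice, 4 male and 1 female), and NOD-AI4 controls (6 mice, 3 male and 3 female). Nfkbid encodes a nuclear regulator of NF-kB. The sources used here do not give what drives the transgenes or whether the endogenous receptor genes were inactivated. The identifiers of all control mice begin with other letters than those of the remaining mice, so that for either group against controls the genotype and the series of identifiers cannot be told apart. The comparison of transgenic with knockout-labelled mice lies within one series.

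In a normal alpha locus, RAG recombinase joins 1 V segment to 1 joining (J) segment in CD4+CD8+ thymocytes, and the joined exon is spliced to Trac. V segments near the J segments are joined first, and further rounds use V segments farther away. The delta chain genes lie between the V and J segments and are removed on a chromosome when a V segment joins a J segment. AI4 is a CD8 receptor from NOD mice, described with an alpha chain of the V alpha 8 family, the Trav12 family in current names. A transgenic alpha chain brings its own joined V segment, so its transcripts are counted on the gene of that V segment, and the counts here do not separate transgene from endogenous transcripts, nor joined from unjoined ones.

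The deposited files gave an estimated count and a TPM value (transcripts per 1000000, scaled by transcript length) for each gene. Between-mouse comparisons use CPM, estimated counts per 1000000 on TMM-scaled library sizes, and levels of different genes are compared in TPM. Library totals lay between 17955743 and 35637813 estimated counts. Nfkbid was 309.6, 239.0, 114.7, 194.5 and 182.8 CPM in the transgenic mice, 34.3, 28.8, 28.7, 28.2 and 37.8 CPM in the mice labelled knockout, and 28.9 to 36.9 CPM (median 31.9) in the controls. It was thus not lower in the mice labelled Nfkbid-/- than in the controls, and their libraries are called knockout-labelled throughout. Cd4, which alone does not mark CD4+CD8+ cells, was present in all 16 libraries. It was 666.2 to 772.7 CPM in transgenic, 708.1 to 843.8 CPM in knockout-labelled and 742.5 to 1125 CPM in control mice. Further markers of the sorted cell type are counted below. In bulk samples fewer cells that use a segment and less RNA per cell cannot be told apart.

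The segment that dominated every library, Trav12-3, has close relatives, and the first 180 columns of an alignment of its V exon with those of Trav12d-3 and Trav12-2 are shown because reads from such copies are hard to assign. They were read from GENCODE transcripts on GRCm38, plus strand, and run 5′ to 3′. Capitals mark the bases of the relatives that differ from Trav12-3. The stretches lie at chr14:53621945-53622124 (Trav12-3), chr14:52929982-52930161 (Trav12d-3) and chr14:53616623-53616793 (Trav12-2).
Trav12-3: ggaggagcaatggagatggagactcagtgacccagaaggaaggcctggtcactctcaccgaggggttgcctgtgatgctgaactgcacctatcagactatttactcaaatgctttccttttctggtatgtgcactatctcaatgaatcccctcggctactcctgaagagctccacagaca
Trav12d-3: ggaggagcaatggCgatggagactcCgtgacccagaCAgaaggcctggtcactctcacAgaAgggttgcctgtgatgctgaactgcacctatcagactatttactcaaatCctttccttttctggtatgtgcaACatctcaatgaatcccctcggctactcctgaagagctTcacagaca
Trav12-2: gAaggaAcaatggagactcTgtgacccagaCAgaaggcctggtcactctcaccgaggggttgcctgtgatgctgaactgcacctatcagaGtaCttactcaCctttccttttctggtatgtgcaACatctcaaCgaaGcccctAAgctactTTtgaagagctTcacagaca
Over the whole exon of 301 bases Trav12d-3 differed from Trav12-3 at 10 bases, all of them in the stretch shown, so the 121 bases that follow are the same in both. Trav12-2 had 17 differing bases and 9 gap positions in the stretch and 2 more differing bases after it (90.7% identity over the exon). By contrast the exon of Trav21-dv12, the fourth segment in level, had 49.3% identity with that of Trav12-3. Of the windows of 50 bases in the annotated Trav12-3 transcript, 68.2% occurred in no other annotated gene. The sources used here do not give the read length, and NOD alleles can differ from this C57BL/6 reference.

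Trav12-3 (ENSMUSG00000095958, chr14:53621657-53622245) alone dominated. It held 69.0% of the summed Trav TPM on average over the 16 libraries, 19.6-fold the next segment, and no other reached 10% or 5%. This is the Trav12 family named for the AI4 receptor above. The other 127 segments are called the other Trav genes here: their transcripts can only come from outside a Trav12-3 transgene, apart from misassigned reads, whose part was not tested. Next in mean share were Trav4-3 (3.53%), Trav6d-7 (2.65%) and Trav21-dv12 (2.59%). Then came Trav15d-1-dv6d-1 (1.41%), Trav16d-dv11 (1.35%), Trav14-2 (1.31%), Trav17 (1.12%) and Trav22 (1.01%). Thus 9 segments held at least 1%, while 76 held under 0.1% each and 1.99% together. A library had an estimated count of at least 0.5 on 85 to 105 Trav genes.

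Per length, Trav12-3 led in each group and Trav4-3 followed it. In transgenic mice Trav12-3 averaged 1807 ± 113 TPM, in knockout-labelled mice 1517 ± 155 TPM and in controls 1770 ± 181 TPM (SD, n = 5, 5 and 6). Trav4-3 averaged 85.7 ± 11.5 TPM in transgenic, 81.6 ± 8.40 TPM in knockout-labelled and 93.2 ± 17.6 TPM in control mice. Trav6d-7 averaged 49.7 ± 4.46 TPM in transgenic, 69.7 ± 12.2 TPM in knockout-labelled and 75.4 ± 17.8 TPM in control mice. Trav21-dv12, a V segment that can also serve delta chains, averaged 49.5 ± 7.48 TPM in transgenic, 59.3 ± 7.33 TPM in knockout-labelled and 81.5 ± 15.7 TPM in control mice. Trav12-3 stood far above the rest in every group, whereas the means of Trav6d-7 and Trav21-dv12 differed by less than the larger of their SDs in each group. In the controls Trav21-dv12 lay between Trav4-3 and Trav6d-7, and its mean differed from either by less than an SD.

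**Figure D1:**
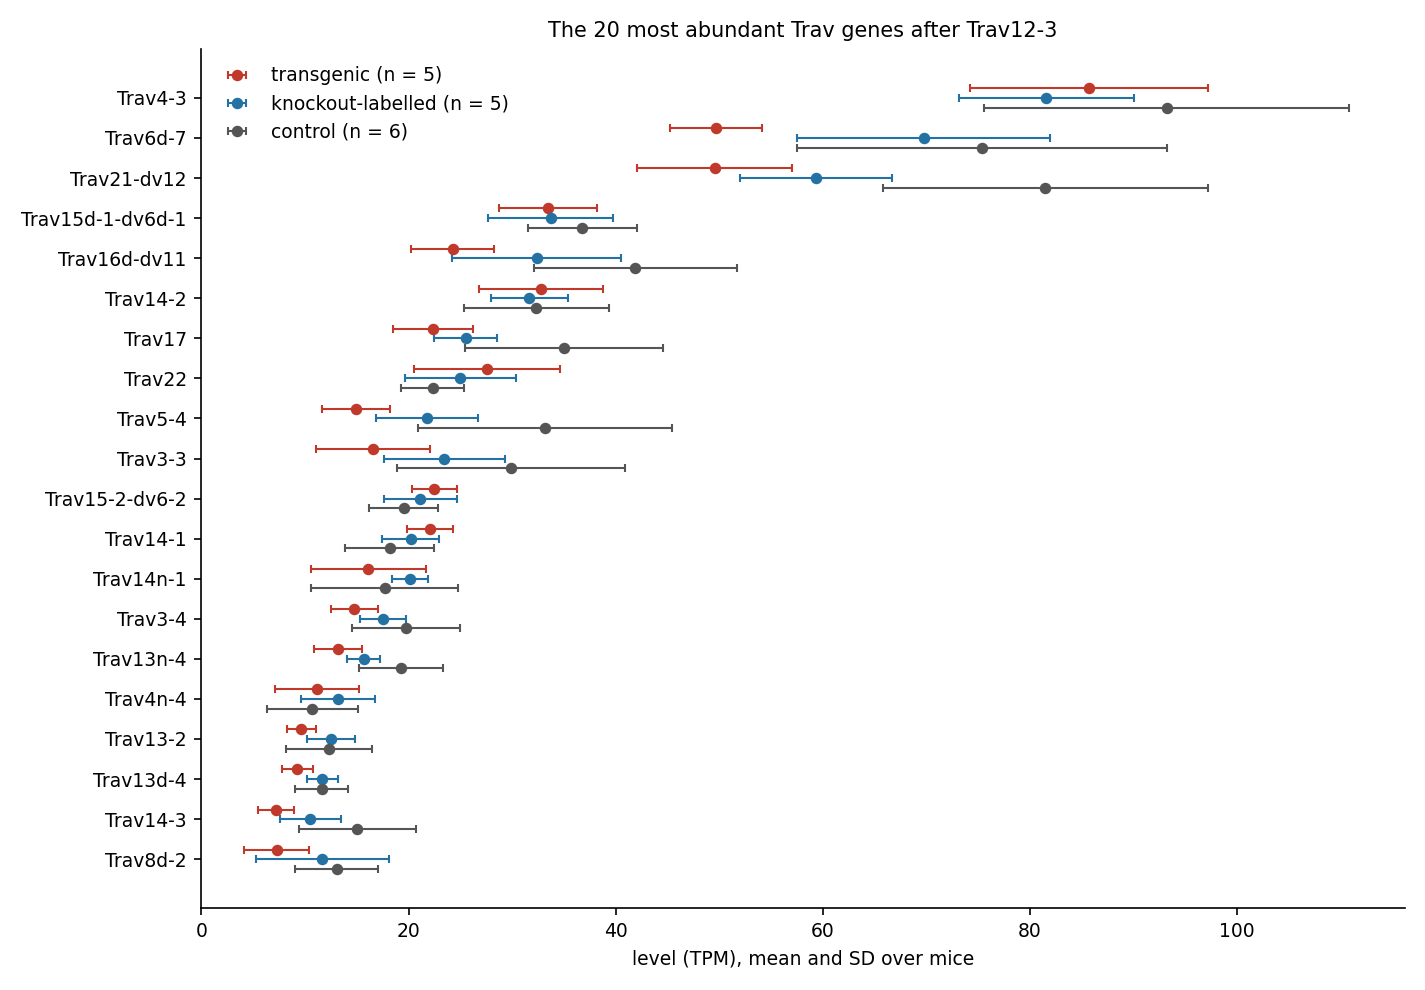
Level in TPM (x axis) of the 20 Trav genes that follow Trav12-3 in mean share (rows, most abundant at the top), as the mean and SD over 5 transgenic, 5 knockout-labelled and 6 control mice. Trav4-3 leads in each group (85.7, 81.6 and 93.2 TPM), while Trav21-dv12 and Trav6d-7 lie at 49.5 and 49.7 TPM in transgenic mice and at 81.5 and 75.4 TPM in controls.

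Among the relatives of Trav12-3 by name, the other 9 members of the Trav12 family summed to 2.01 ± 0.525 CPM in transgenic, 2.68 ± 0.447 CPM in knockout-labelled and 3.00 ± 0.690 CPM in control mice (SD, n = 5, 5 and 6). Trav12d-3 and Trav12n-3, the closest in sequence, averaged 0.760 and 0.603 estimated counts per library. Trav12-2 averaged 18.9 estimated counts, so nearly all reads of the family were counted on Trav12-3.

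The dominant share was higher in the transgenic mice than in the other mice, 1 control excepted. It was 74.7%, 72.3%, 73.5%, 73.8% and 73.4% of summed Trav TPM in transgenic mice. It was 67.2%, 68.2%, 66.7%, 63.2% and 67.9% in knockout-labelled mice, and 64.6% to 73.5% (median 65.8%) in controls. Every transgenic value lay above every knockout-labelled value, and above 5 of the 6 controls. The sixth, control replicate 6, had 73.5%. The means were 73.6% ± 0.861 in transgenic, 66.6% ± 2.02 in knockout-labelled and 67.2% ± 3.39 in control mice (SD), and without control replicate 6 the control mean was 66.0%. As shares of estimated counts the means were 77.7%, 71.7% and 72.2% in the same order of groups. The 95% Wilson intervals of a library's share of counts were 1.42 to 1.88 percentage points wide and cover counting error only.

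Trav12-3 itself was 446.6, 388.3, 407.0, 376.6 and 423.1 CPM in transgenic mice. It was 305.3, 355.4, 344.1, 311.1 and 344.7 CPM in knockout-labelled mice, and 323.4 to 414.2 CPM (median 377.3) in controls. The transgenic and knockout-labelled ranges did not overlap, and the controls overlapped both. Against knockout-labelled mice Trav12-3 was higher in transgenic mice by 0.32 ± 0.0634 on the log2 scale (SE), or 1.25-fold, with an adjusted p of 0.0144 by edgeR's quasi-likelihood test with Benjamini-Hochberg adjustment. The exact two-sided permutation p on the CPM values was 0.00794, the smallest that 252 arrangements can give. This call was lost in the fit on these groups alone (adjusted p = 0.0507 by edgeR), in males alone (0.145) and without knockout-labelled replicate 1 (0.0535). It was also lost without control replicate 1 and knockout-labelled replicates 1 to 3 (adjusted p = 0.124 by edgeR), the non-transgenic libraries with the most Cd74, an MHC class II chaperone gene. Cd74 was 9.30 to 30.6 CPM in those 4 libraries, and 19.1 to 38.8 CPM in the transgenic mice. It was lost as well without control replicate 2 and transgenic replicates 3 and 5, chosen for high interferon-response transcripts (adjusted p = 0.145 by edgeR).

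Against the controls Trav12-3 missed the threshold in transgenic mice and fell in knockout-labelled mice. In transgenic mice it was 0.13 ± 0.0595 higher on the log2 scale (adjusted p = 0.104 by edgeR, exact two-sided permutation p = 0.0866). In knockout-labelled mice it fell by 0.19 ± 0.0616, with an adjusted p of 0.0278 by edgeR and an exact two-sided permutation p of 0.0411. The call in knockout-labelled mice ended without the sex term (adjusted p = 0.0576 by edgeR), without control replicate 2 (0.0534), control replicate 3 (0.0565) or knockout-labelled replicate 1 (0.0944), and without either set of libraries named above (0.194 and 0.0863).

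Trac, which joined transcripts of every V segment share, did not pass edgeR's test with all libraries in any comparison. It was 575.0, 561.9, 560.0, 525.0 and 594.4 CPM in transgenic mice, 482.2, 554.8, 545.2, 507.5 and 547.1 CPM in knockout-labelled mice, and 512.1 to 624.9 CPM (median 554.3) in controls. The ranges of the groups overlapped. The adjusted p by edgeR was 0.970 for transgenic against control, 0.107 for knockout-labelled against control and 0.523 for transgenic against knockout-labelled mice. The knockout-labelled value was -0.12 ± 0.0516 on the log2 scale, and it passed in 8 of the 29 alternative settings. These included DESeq2, the stricter filter, the fit of these groups alone, and the fits without control replicate 6, transgenic replicate 2, transgenic replicate 4 or knockout-labelled replicate 5, with adjusted p between 0.0253 and 0.0483. Per 100 TPM of Trac, Trav12-3 amounted to 97.2 ± 5.23 TPM in transgenic, 85.1 ± 2.00 TPM in knockout-labelled and 89.7 ± 4.70 TPM in control mice.

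**Figure D2:**
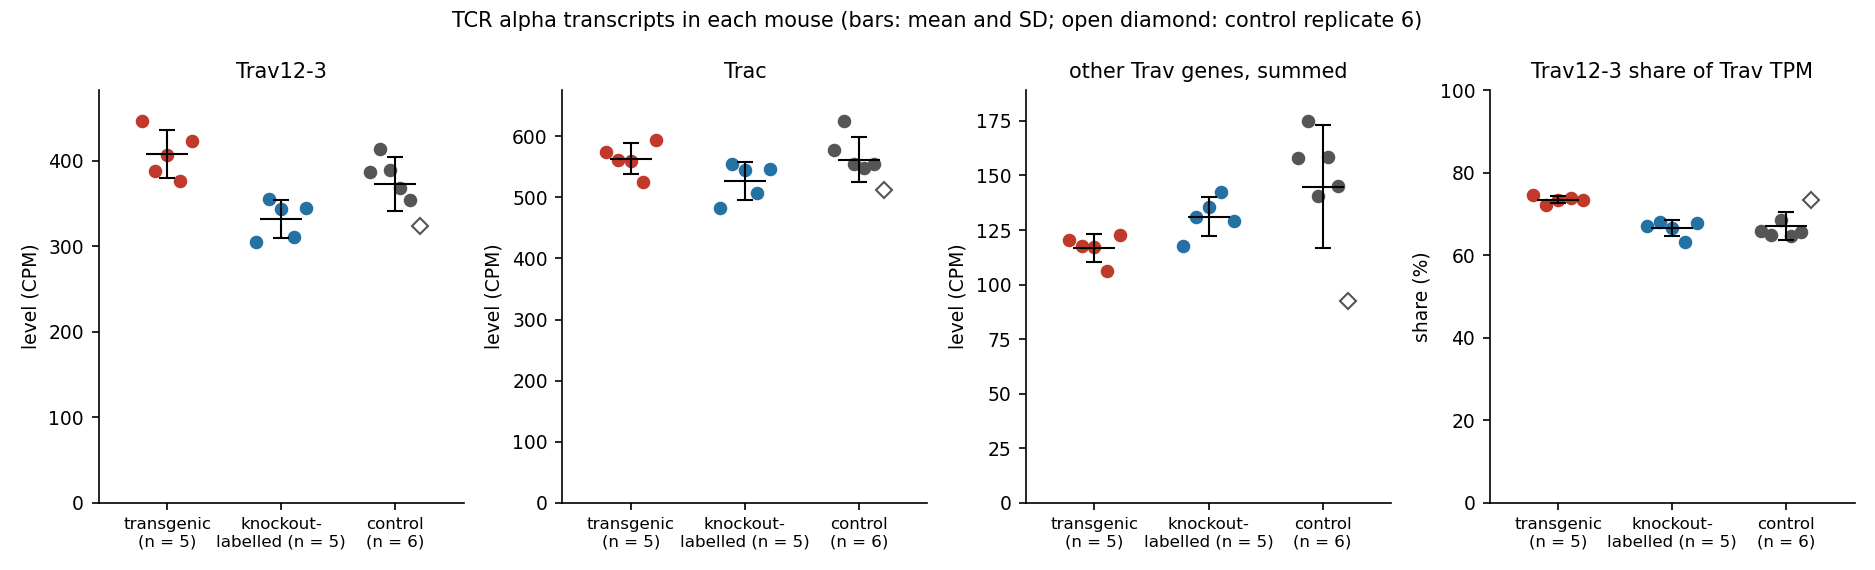
Levels in CPM of Trav12-3, of Trac and of the other 127 Trav genes summed, and the share in percent of Trav12-3 in summed Trav TPM (y axes from 0), with 1 point per mouse and bars for the mean and SD of 5 transgenic, 5 knockout-labelled and 6 control mice. Control replicate 6, the open diamond, has the lowest sum of the other Trav genes (92.7 CPM) and a share of 73.5%, among the transgenic values.

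The other 127 Trav genes together were lower in transgenic mice than in 5 of 6 controls. They summed to 120.3, 117.8, 117.2, 106.0 and 122.8 CPM in transgenic mice. They summed to 117.9, 130.8, 135.3, 142.5 and 129.0 CPM in knockout-labelled mice, and to 92.7 to 174.9 CPM (median 151.4) in controls. Control replicate 6 was the lowest of all 16 libraries, and the other 5 controls lay above every transgenic value. In TPM the means were 649 ± 32.3 in transgenic, 758 ± 61.4 in knockout-labelled and 877 ± 191 in control mice, and the log2 ratio of transgenic to control means was -0.43 in TPM and -0.32 in counts per 1000000 of the library total. The transgenic mice also had the narrowest spread. The sum of all Trav genes had a log2 ratio of -0.11 for transgenic to control means in TPM and of 0.01 in counts per 1000000, so its direction depended on the scale.

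Single segments were tested with all 14933 genes that passed the filter on low counts, and 58 Trav genes and Trac were among them. The remaining 70 members had at most 0.499 CPM on average each and 3.69 to 10.7 CPM together in a library, with 10 of the 129 under 1 estimated count over all libraries. In transgenic against control mice, 14 of the 59 members fell and 0 rose (edgeR, adjusted p under 0.05). Of all genes tested, 15.6% fell and 23% rose in this comparison, so the members' 23.7% lower stood above the background share and their 0 higher under it. The members' median log2 fold change was -0.37, against 0.03 over all genes tested, and 46 of the 59 were negative. At an unadjusted p under 0.05 by edgeR there were 22 of the 59 members and 7098 of the 14933 genes, a smaller share for the members. DESeq2 called 15 members lower (25.4%) and 0 higher, against 19.3% lower and 20.3% higher over all genes. By limma-voom 15 members were lower (25.4%) and 1 higher, against 15.5% lower and 22.6% higher over all genes. Without control replicate 6 there were 20 lower calls, without the 4 libraries of higher Cd74 named above 8, and without the 3 libraries of high interferon-response transcripts 6. In both of these settings the members' share no longer stood above that of all genes. It was 12.7% of 63 members against 12.9% of all genes without the Cd74 libraries, and 9.84% of 61 members against 13.9% of all genes without the interferon libraries.

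The steepest falls were in low to moderate segments. Trav7-3 (chr14:53443249-53443839) was 0.195, 0.391, 0.434, 0.425 and 0.333 CPM in transgenic mice, against 0.607 to 1.22 CPM (median 0.893) in controls. The groups did not overlap, and the log2 fold change was -1.34 ± 0.270 (adjusted p = 0.00106 by edgeR). Trav12-2, a relative of the dominant segment shown above, was 0.244, 0.547, 0.782, 0.266 and 0.333 CPM in transgenic mice, against 0.769 to 1.37 CPM (median 0.972) in controls. Only transgenic replicate 3 reached the control range, and the log2 fold change was -1.21 ± 0.282 (adjusted p = 0.00310 by edgeR). Both had few reads, with means of 14.7 and 18.9 estimated counts per library.

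Among more abundant segments, Trav5-4 was 2.29, 3.20, 2.65, 1.65 and 2.24 CPM in transgenic mice, against 2.04 to 7.25 CPM (median 5.03) in controls. The low end of the controls was replicate 6, and the next control had 4.37 CPM. The log2 fold change was -1.03 ± 0.254 (adjusted p = 0.00479 by edgeR). Trav21-dv12 was 9.02, 10.1, 8.25, 6.33 and 8.91 CPM in transgenic mice, against 9.38 to 15.6 CPM (median 13.4) in controls. Of the transgenic mice 1 lay above the lowest control, again replicate 6. Its log2 fold change was -0.61 ± 0.130 (adjusted p = 0.00167 by edgeR). Trav13-4-dv7 again had few reads, with 14.0 to 46.4 estimated counts in a library. It was 0.651 to 0.927 CPM in transgenic mice, against 0.938 to 1.70 CPM in controls, with no overlap. Its log2 fold change was -0.72 ± 0.188 (adjusted p = 0.00674 by edgeR).

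Trav6d-7, the third segment in level, was 8.15, 8.71, 7.95, 8.03 and 9.48 CPM in transgenic mice. In controls 5 libraries had 12.0 to 13.5 CPM and replicate 6 had 6.62 CPM. The log2 fold change was -0.51 ± 0.149 (adjusted p = 0.0129 by edgeR). It stands for a pair, since its annotated transcript is identical to that of Trav6n-7, on which no reads were counted. The remaining 8 lower calls, listed to complete the count, were Trav16d-dv11, Trav14-3, Trav7-6, Trav17, Trav13n-4, Trav14d-3-dv8, Trav7-4 and Trav3-3, with log2 fold changes between -1.04 and -0.47. Trav4-3, the second segment, did not pass: it was 15.5 to 21.7 CPM in transgenic mice, against 13.2 to 22.0 CPM in controls (-0.03 ± 0.117, adjusted p = 0.880 by edgeR).

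No segment rose past the threshold, but some were higher on average in transgenic mice. Trav14-1 was the only member with all transgenic values (4.02 to 4.76 CPM) above all control values (2.10 to 4.00 CPM), and is named for that after its values were seen. Its log2 fold change of 0.38 ± 0.148 had an adjusted p of 0.0524 by edgeR. Groups did not overlap for 3 members with transgenic mice lower, Trav7-3, Trav13-4-dv7 and Trav7-6. Over all genes 13.7% were higher and 7.88% lower with no overlap, so these 4 of 59 members are not above the background.

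In knockout-labelled against control mice, 3 of the 59 members fell and 0 rose, against a background of 10% lower and 16.4% higher. At an unadjusted p under 0.05 by edgeR there were 12 of the 59 members and 5737 of the 14933 genes, a smaller share for the members. DESeq2 called 6 members lower (10.2%) and limma-voom 4 (6.78%), against 13.6% and 10.6% of all genes. Neither called a member higher, against 15.5% and 16.4% of all genes. The 3 called by edgeR were Trav12-3 (above), Trav21-dv12 and Trav19. Trav21-dv12 was 9.21, 10.1, 10.5, 8.69 and 10.8 CPM in knockout-labelled mice, against 9.38 to 15.6 CPM (median 13.4) in controls, a log2 fold change of -0.40 ± 0.132 (adjusted p = 0.0347 by edgeR). Trav19 was 1.23, 1.45, 1.71, 1.65 and 1.64 CPM in knockout-labelled mice, against 0.883 to 3.07 CPM (median 2.49) in controls, a log2 fold change of -0.68 ± 0.230 (adjusted p = 0.0359 by edgeR). For both genes every knockout-labelled value lay below every control but replicate 6, the next controls having 11.8 CPM of Trav21-dv12 and 2.26 CPM of Trav19. No member had groups without overlap (0 higher and 0 lower), against 8.77% higher and 5.34% lower over all genes. The members' median log2 fold change was -0.10, against 0.02 over all genes. The count was 9 without control replicate 6 (15.3% of members, against 12.4% of all genes lower). It was 0 without control replicate 2 or knockout-labelled replicate 1 (8.45% and 7.36% of all genes lower). It was 1 without control replicate 4 or 5 (8.78% and 10% of all genes lower).

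Both contrasts against controls share their control libraries, so their values are only set side by side. Trav7-3 had a log2 fold change of -1.34 in transgenic and -0.68 in knockout-labelled mice, Trav5-4 of -1.03 and -0.57, Trav14d-3-dv8 of -0.55 and -0.51. Trav12-2 had -1.21 in transgenic and -0.29 in knockout-labelled mice, and Trav7-6 had -0.79 and -0.14. In the direct test of transgenic against knockout-labelled mice, 1 of 59 members rose, Trav12-3, and 0 fell, against a background of 1.07% higher and 0.0938% lower. The members' median log2 fold change was -0.21, against 0.00 over all genes. An unadjusted p under 0.05 by edgeR was found for 8 of the 59 members and 1408 of the 14933 genes. Trav8d-1 had the most negative log2 fold change (-1.20 ± 0.511, adjusted p = 0.434 by edgeR), with 0.000 to 0.508 CPM in transgenic and 0.339 to 0.766 CPM in knockout-labelled mice. Trav6d-7 was the only member with all transgenic values below all knockout-labelled values (9.64 to 15.4 CPM), with a log2 fold change of -0.41 ± 0.157 (adjusted p = 0.344 by edgeR). Trav12-3 was the only one with all transgenic values above, so 1 member stood apart in each direction, against 2.33% higher and 0.763% lower over all genes.

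**Figure D3:**
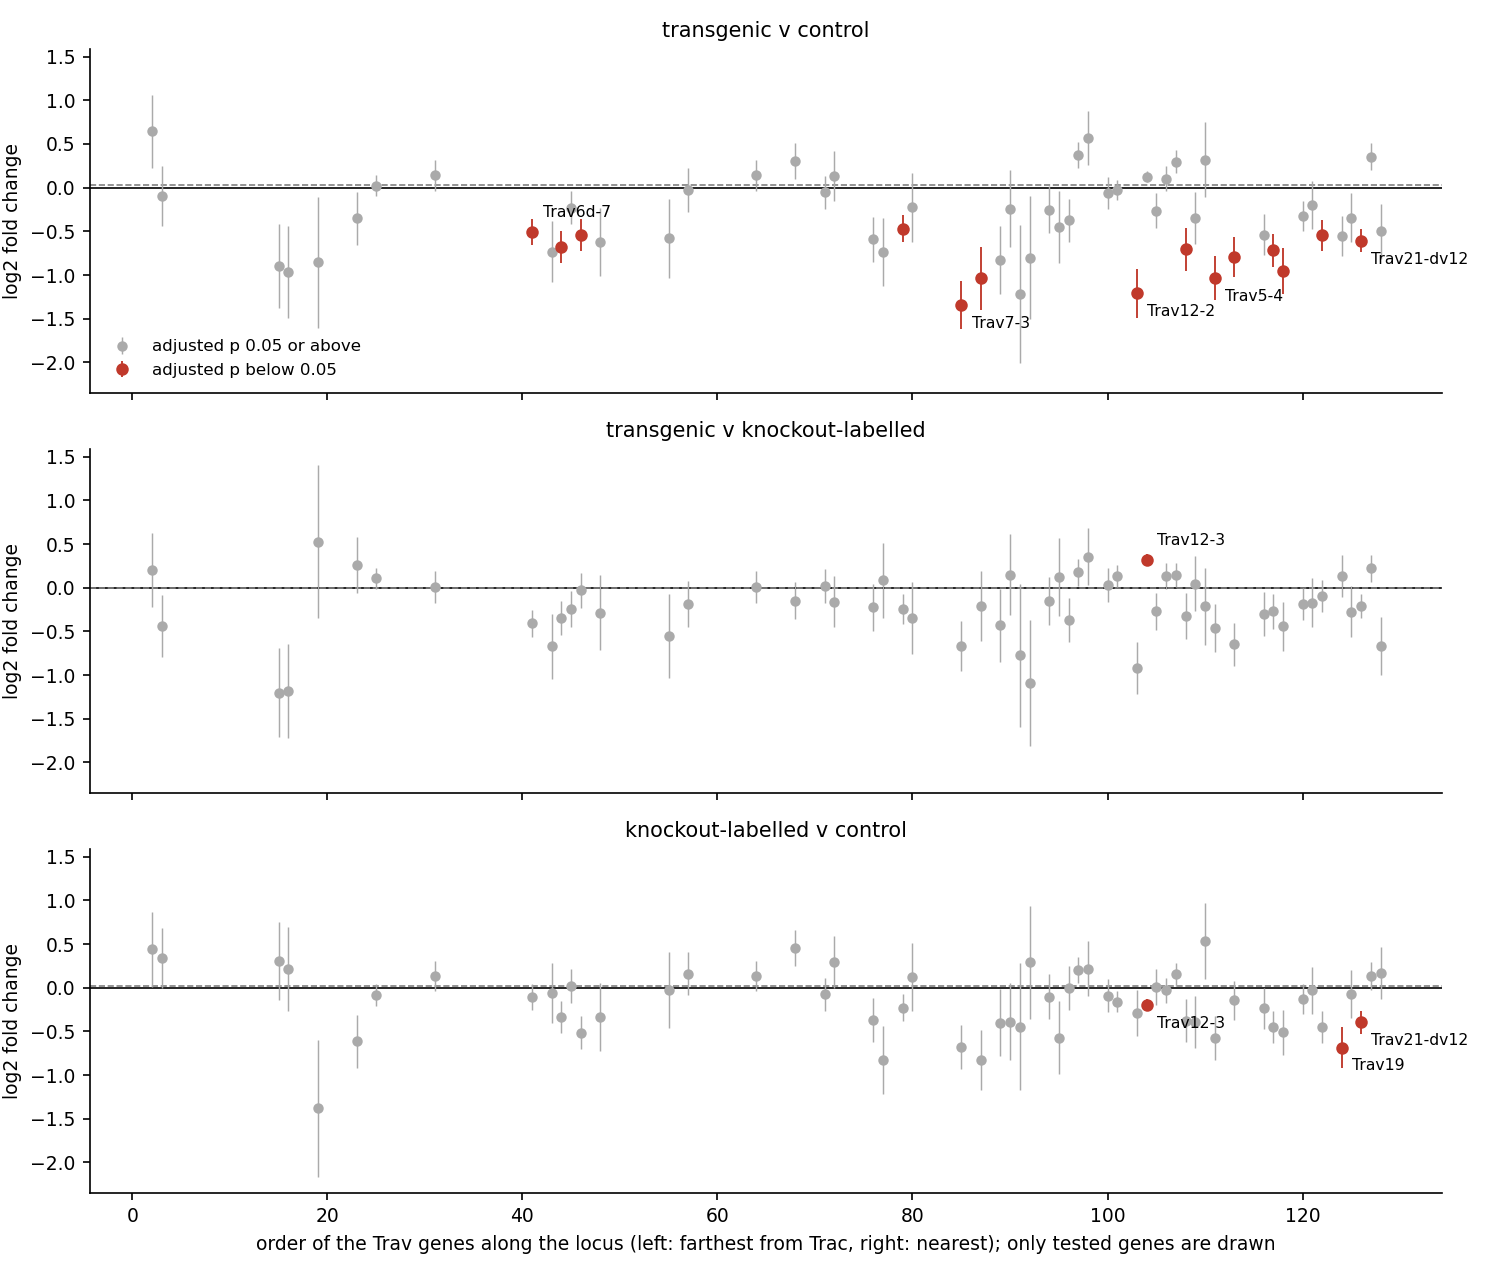
Log2 fold change with its SE (y axis) of the 58 tested Trav genes in 3 comparisons (panels), by their order among the 128 Trav genes from the far end of the locus to the end nearest Trac (x axis). Red points passed an adjusted p of 0.05 by edgeR, and the dashed line is the median of all genes tested. In transgenic against control mice the 14 red points lie below 0, 9 of them in the stretch nearest Trac, 4 in the middle stretch and 1 in the far stretch. The far one is Trav6d-7, whose annotated transcript is identical to that of Trav6n-7 in the middle stretch. Between transgenic and knockout-labelled mice Trav12-3 is the one red point, at 0.32.

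Position along the locus was taken from the annotation, in 3 stretches of nearly equal gene number, without Trav12-3. The stretch nearest Trac (41 genes, chr14:53461099-53977678) held most of the transcripts of the other Trav genes, with 72.4 ± 4.63 CPM in transgenic, 77.0 ± 3.20 CPM in knockout-labelled and 87.2 ± 17.1 CPM in control mice. The middle stretch (43 genes) held 22.5 ± 2.30 CPM in transgenic, 27.5 ± 3.39 CPM in knockout-labelled and 29.2 ± 7.13 CPM in control mice. The far stretch (43 genes) held 22.0 ± 0.834 CPM in transgenic, 26.6 ± 3.43 CPM in knockout-labelled and 28.5 ± 5.00 CPM in control mice. The median log2 fold change of tested members for transgenic against control was -0.41 nearest Trac, -0.47 in the middle and -0.43 at the far end, and the lower calls were 9 of 32, 4 of 15 and 1 of 10. The 1 lower call at the far end was Trav6d-7, whose annotated transcript is identical to that of Trav6n-7 in the middle stretch. This pair had 8.46 CPM in transgenic and 11.9 CPM in control mice, counted on the far copy. Trav15d-1-dv6d-1 at the far end likewise matches Trav15n-1 in the middle (6.36 and 6.21 CPM for the pair). The far and middle values thus depend on how such reads were split. No difference between stretches was tested.

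By family, the number after Trav in the symbol, the sums did not all shift alike. The Trav5 family summed to 2.51 ± 0.610 CPM in transgenic, 3.74 ± 0.778 CPM in knockout-labelled and 5.14 ± 1.82 CPM in control mice. The Trav7 family summed to 3.17 ± 0.376 CPM in transgenic, 4.31 ± 0.589 CPM in knockout-labelled and 5.63 ± 1.54 CPM in control mice. The Trav6 family summed to 10.4 ± 0.768 CPM in transgenic, 14.0 ± 2.62 CPM in knockout-labelled and 15.5 ± 3.29 CPM in control mice. Among families above 2 CPM, transgenic sums lay lowest relative to control in Trav5 and Trav7, followed by Trav8, Trav16, Trav21, Trav12 without Trav12-3, and Trav6.

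Trav17, Trav3, Trav13 and Trav9 were lower on average in transgenic than in control mice (log2 ratios of the sums of -0.53, -0.49, -0.39 and -0.25). Trav22, a family of 1 gene, was higher on average (0.40), but the gene did not pass (adjusted p = 0.0746 by edgeR). The sums of Trav4, Trav14 and Trav15 differed less. The Trav4 family summed to 20.2 ± 2.90 CPM in transgenic, 19.4 ± 1.35 CPM in knockout-labelled and 20.3 ± 3.69 CPM in control mice. The Trav14 family summed to 17.4 ± 1.37 CPM in transgenic, 18.3 ± 0.674 CPM in knockout-labelled and 18.4 ± 4.02 CPM in control mice. The Trav15 family was 12.6 ± 0.865 CPM in transgenic, 11.8 ± 1.28 CPM in knockout-labelled and 11.1 ± 1.38 CPM in control mice. In TPM the Trav4 and Trav14 means were somewhat lower in transgenic mice (101 and 98.7 TPM) than in controls (109 and 110 TPM), as in CPM. The 20 pseudogenes together were 5.98 ± 1.14 CPM in transgenic, 5.92 ± 0.564 CPM in knockout-labelled and 5.79 ± 0.828 CPM in control mice, with 3 tested and 0 called.

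The V region of this build holds duplicated blocks whose genes carry d or n in the symbol. Identical annotated transcripts joined 36 members into 18 pairs, and their counts depended on how the authors' counting split such reads. Trav9d-3 and Trav9n-3 had equal counts in all 16 libraries, within 0.01 counts (28.9 each on average), whereas Trav14d-1 had 9.97 and Trav14n-1 had 86.0. Trav6-6 and its copy Trav6d-6 were equal within 0.01 counts in 9 libraries and unequal in 7, and Trav6-6 was among the members that varied most within a group, with 0.000 to 1.20 CPM in controls. Trav10, the other such member, was 0.0976, 0, 0.869, 0 and 0.0476 CPM in transgenic mice, against 0.221 to 0.801 CPM in controls (adjusted p = 0.237 by edgeR). The sum of Trav6-6 and Trav6d-6 was 0.626 ± 0.169 CPM in transgenic, 0.938 ± 0.254 CPM in knockout-labelled and 1.11 ± 0.292 CPM in control mice. With each pair counted as 1 gene, a choice made after the uneven splits were seen, 57 members were tested, and 15 fell and 0 rose in transgenic against control mice. The added one was this pair, with a log2 fold change of -0.79 ± 0.249 (adjusted p = 0.0195 by edgeR). The counts of 3 lower in knockout-labelled against control and 1 higher in transgenic against knockout-labelled mice did not change in number.

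Other genes of the pathway were read in the same libraries. Of 16 recombination and joining genes, 3 rose and 4 fell in transgenic against control mice and 2 rose and 3 fell in knockout-labelled against control mice, with 0 called in transgenic against knockout-labelled mice. Over all genes 38.6% were called in either direction in transgenic against control mice, 26.4% in knockout-labelled against control mice and 1.17% in transgenic against knockout-labelled mice, so 7 and 5 of 16 are near the background. Rag1, a subunit of the recombinase, was 441.1, 537.6, 564.7, 448.8 and 535.1 CPM in transgenic mice, 513.8, 1015, 809.1, 1046 and 586.0 CPM in knockout-labelled mice, and 492.5 to 1157 CPM (median 1084) in controls. The lowest control was replicate 6, and the next had 842.1 CPM. Rag1 fell by 0.95 ± 0.218 on the log2 scale in transgenic against control mice (adjusted p = 0.00388 by edgeR), and its partner Rag2 by 0.67 ± 0.214 (adjusted p = 0.0247 by edgeR). Hmgb2, a DNA-bending cofactor of RAG that is also high in dividing cells, rose by 0.72 ± 0.106 in transgenic (adjusted p = 1.5e-04 by edgeR) and by 0.60 ± 0.109 in knockout-labelled mice (adjusted p = 0.00136 by edgeR), both against controls. Xrcc5, which encodes the Ku80 end-joining protein, averaged 27.9 CPM in transgenic, 25.7 CPM in knockout-labelled and 21.1 CPM in control mice and rose in both (0.42 ± 0.0769 and 0.31 ± 0.0791).

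Among 16 regulators of the locus and of thymocyte survival, 3 rose and 5 fell in transgenic against control mice and 1 rose and 1 fell in knockout-labelled against control mice. None was called in transgenic against knockout-labelled mice. Over all genes 23% rose and 15.6% fell in the first comparison and 16.4% rose and 10% fell in the second. Bcl11b, a T-lineage transcription factor, averaged 1030 ± 18.3 CPM in transgenic, 1135 ± 91.9 CPM in knockout-labelled and 1209 ± 41.6 CPM in control mice, and fell in transgenic mice (-0.23 ± 0.0510, adjusted p = 0.00205 by edgeR).

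The delta chain genes inside the alpha locus were read beside the V segments. Trdc, the delta constant gene, was 622.0, 696.4, 625.5, 641.5 and 584.3 CPM in transgenic mice, 574.0, 535.7, 533.9, 365.4 and 571.3 CPM in knockout-labelled mice, and 417.9 to 618.8 CPM (median 452.4) in controls, with control replicate 6 the highest control. It rose in transgenic against control mice by 0.42 ± 0.110 on the log2 scale (adjusted p = 0.00795 by edgeR) and missed the threshold in knockout-labelled mice (0.14 ± 0.114, adjusted p = 0.385 by edgeR). Of the 10 delta V, D and J genes 5 were tested and 0 were called by edgeR in any comparison, with 2, 1 and 0 at an unadjusted p under 0.05 in transgenic against control, knockout-labelled against control and transgenic against knockout-labelled mice. Over all 14933 genes there were 7098, 5737 and 1408 at that level in the same order. Trdv1 averaged 7.76 CPM in transgenic, 7.68 CPM in knockout-labelled and 9.69 CPM in control mice, and Trdv5 3.12, 2.70 and 2.12 CPM in the same order. All 60 alpha J segments were listed at 0 in every library, as were 4 of the 10 delta genes. Trac had 482.2 to 624.9 CPM in the same libraries. The J values are thus not read as absence of J sequence from the transcripts, and why they are 0 was not tested. In the receptor complex list of 8 genes, Ptcra and Trdc rose and Trbc1 fell in transgenic against control mice, and Ptcra rose and Trbc1 fell in knockout-labelled against control mice. None of the 8, Trdc included, was called in transgenic against knockout-labelled mice. Over all genes 23% rose and 15.6% fell in the first comparison and 16.4% rose and 10% fell in the second, so these counts are near the background. Trbc1, a beta chain constant gene, averaged 1524 ± 83.6 CPM in transgenic, 1519 ± 69.3 CPM in knockout-labelled and 1755 ± 124 CPM in control mice.

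**Figure D4:**
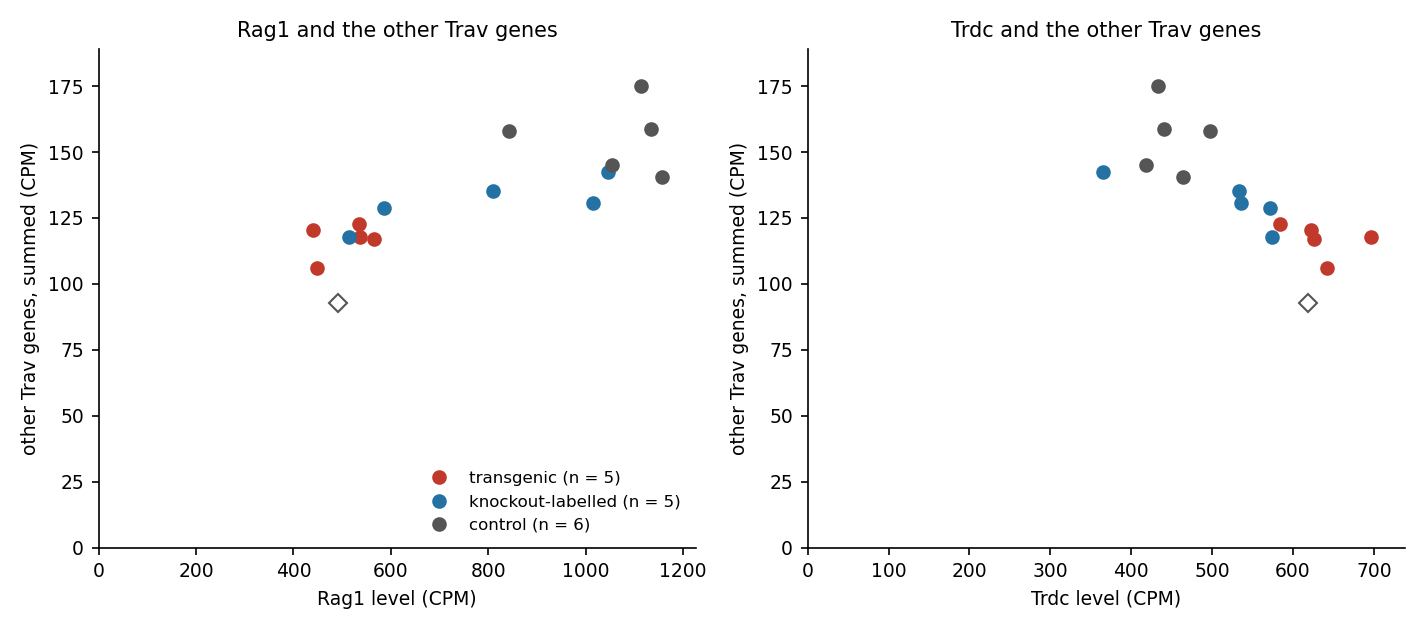
Summed level of the other 127 Trav genes (y axis, CPM) against the level of Rag1 (left) and of Trdc (right, both CPM), with 1 point per mouse. The transgenic mice lie at low Rag1 (441.1 to 564.7 CPM) and high Trdc (584.3 to 696.4 CPM), and control replicate 6 (open diamond) lies beside them at 492.5 and 618.8 CPM. Knockout-labelled replicate 1 lies near them too, at 513.8 CPM of Rag1, 574.0 CPM of Trdc and 117.9 CPM of the other Trav genes.

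Markers of maturation and of other cells were read as short lists. Over all genes 23% rose and 15.6% fell in transgenic against control mice. In knockout-labelled against control mice 16.4% rose and 10% fell. A lone call in such a list is not read as a difference. Of 8 double-positive thymocyte markers 6 fell and 1 rose in transgenic against control mice, and their summed level was 4572 to 5159 CPM in transgenic, 4649 to 6123 CPM in knockout-labelled and 4458 to 7034 CPM in control mice. Of 7 mature single-positive markers 6 rose, with sums of 632.2 to 922.2 CPM in transgenic, 437.2 to 558.4 CPM in knockout-labelled and 360.1 to 560.0 CPM in control mice. Of 6 B cell markers 5 rose in the transgenic mice, with sums of 46.9 to 91.7 CPM in transgenic, 1.93 to 3.53 CPM in knockout-labelled and 2.18 to 6.70 CPM in control mice, mostly Igkc. Of 7 dendritic cell and macrophage markers 6 rose, with sums of 34.6 to 54.4 CPM in transgenic, 3.81 to 39.3 CPM in knockout-labelled and 2.99 to 17.1 CPM in control mice. Of 5 gamma-delta T cell markers tested 1 rose, Trdc, of 5 double-negative markers tested 1 rose, and of 4 erythroid markers none passed (medians 0.42, 0.33 and 0.09 on the log2 scale). In knockout-labelled against control mice 1 rose and 2 fell of the double-positive, 1 rose of the single-positive, 1 fell of the B cell, 1 rose of the dendritic cell and macrophage, 1 fell of the gamma-delta and 1 rose of the double-negative markers. In transgenic against knockout-labelled mice, 4 of the 6 B cell and 1 of the 7 single-positive markers rose. Over all genes 1.07% rose and 0.0938% fell there, and no marker of the other lists was called. The part of these other cells and of maturation in the V segment levels was not tested. Control replicate 6, with the low Rag1 and the low level of the other Trav genes, had Cd74 at 2.76 CPM, within the range of the other controls. It also had the highest level among controls of Ccr7, a mature single-positive marker (26.0 CPM, next 22.3). Its Cd4 was the lowest among controls (742.5 CPM, next 937.0). Any link of these values to its Trav levels was not tested.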

How the data were processed

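Total RNA of sorted CD4+CD8+ thymocytes (RNA integrity number over 9) was made into stranded KAPA libraries, per the labels' protocols. The submitters' processing notes list Bowtie 1.0.0, SAMtools 0.1.18, edgeR 3.24.3 and the builds GRCm38 and mm10, with no role or order. Neither a counting program nor an annotation release is named. The deposited files hold the authors' estimated counts (expected counts), of which 58.7% of the positive values are whole within 1e-06, and the authors' TPM values, which scale counts by transcript length and library.

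Symbols and positions came from GENCODE vM21, which named 46005 of 46517 identifiers. After rounding of the estimated counts, edgeR 4.0.16 (R 4.3.3) was run with filterByExpr by group, TMM, a robust quasi-likelihood fit with group and sex on all 16 libraries (12 residual degrees of freedom, common biological coefficient of variation 0.128), and Benjamini-Hochberg adjustment over 14933 genes, with calls at 0.05, two-sided. TPM values were used for shares and levels between genes, with no test. A segment counted as dominant at a mean share of 10% of summed Trav TPM. Exact permutation tests used CPM. The fit was tested on simulated data with known fold changes, set at a common spread and in genes of higher counts. Those changes were larger than most of the members' own, so the test does not cover small changes or segments with few reads. No 2 libraries of a group agreed within sampling noise (chi-square per degree of freedom 4.42 or more).

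The members and lists were chosen with earlier results of these data known. Genes named by rule were Trac, Nfkbid, Trav genes with a mean share of at least 2%, the 5 members with the smallest p in each comparison, members called in more than 1 comparison, the 2 with the largest SD of log2 CPM (with 0.1 CPM added) within a group, and the 2 genes with the smallest p of each other list. The values of 1 gene so named are not reported here. Alternatives were RLE size factors, library totals, DESeq2 1.42.0, limma-voom (limma 3.58.1), no filter, a filter of 1 CPM in 5 libraries, no sex term, a replicate block, the groups compared alone, males alone, each library left out, 2 sets of libraries left out, and identical copies summed (added after seeing the data). RefSeq tables with promoters or proteins were not used.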

Additional observations from a re-analysis of the deposited data

Results flagged for a closer look

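Of 63 sets of values of 1 group, 10 had a library whose gap to its nearest neighbour was large for the range of the group by Dixon's criterion, which flags about 1 in 20 by chance. Control replicate 6 was low in Trav6d-7 (6.62 CPM, next 12.0), in Trav19 (0.883 CPM, next 2.26) and in the other Trav genes per 100 TPM of Trac (29.7 TPM, next 43.6). Knockout-labelled replicate 1 was low in Trav12-2 (0.552 CPM, next 0.926) and in the summed other Trav genes (651.9 TPM, next 763.8). Knockout-labelled replicate 4 was high in the other Trav genes per 100 TPM of Trac (48.1 TPM, next 42.1). Among transgenic mice, replicate 4 was low in Trav7-6 (0.319 CPM, next 0.634), replicate 3 was high in Trav10 (0.869 CPM, next 0.0976), replicate 5 was high in Trac (2021 TPM, next 1858) and replicate 1 was high in Trav12-3 per 100 TPM of Trac (106.3 TPM, next 96.5).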

How the results depend on the processing

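In transgenic against control mice the 14 lower members were 8 without control replicate 1 and knockout-labelled replicates 1 to 3 (the non-transgenic libraries with the most MHC class II transcripts) and 6 when control replicate 2 was left out with replicates 3 and 5 of the transgenic mice (high interferon response), 11 to 20 calls in either direction with single libraries left out (10 to 20 of them lower), and within 1.5 times of 14 in the other settings. Without the MHC class II set 12.7% of members were lower against 12.9% of all genes, and without the interferon set 9.84% against 13.9%, while in the other settings run the members' share lay above that of all genes. In knockout-labelled against control mice the 3 lower members were 6 by DESeq2, 5 with the stricter filter, 1 with no sex term, 5 in the fit of these groups alone, 0 without the MHC class II set, 1 (higher) without the interferon set and 0 to 9 with single libraries left out, the extremes being control replicate 2 or knockout-labelled replicate 1 (0) and control replicate 6 (9), with 1 for control replicates 4 and 5, 5 for transgenic replicate 2 and 6 for transgenic replicate 4. In transgenic against knockout-labelled mice the 1 call, Trav12-3, was 0 in the fit of these groups alone, in males, without either set, and without knockout-labelled replicate 1 (0 to 1 over single libraries). Why these counts moved was not tested, beyond there being fewer libraries. The titles' replicate numbers do not pair mice: of 15 pairs of same-numbered libraries 1 had a correlation of deviations over 0.1 (-0.09 to 0.27), and with a replicate block 7 members were called in knockout-labelled against control mice.

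In counts in place of TPM the share of Trav12-3 was 77.7% in transgenic, 71.7% in knockout-labelled and 72.2% in control mice. Near 0, the log2 fold change of Trac in transgenic against control mice (called in none of these) changed sign without the sex term (0.0033), without the MHC class II set (0.0026) and over single libraries (-0.057 to 0.0084), and that of Trav12-3 did in males (-0.0058). Depth limits the 70 members that the filter removed and segments such as Trav7-3, at 14.7 estimated counts a library. Trac in knockout-labelled against control mice became a call in 8 of 29 settings, the replicate block among them (adjusted p 0.0253 to 0.0483 by edgeR or DESeq2).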

Other observations

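The effective number of the other Trav genes, that is, the number of equally used segments with the same Shannon entropy of TPM shares, was 35.7 ± 1.53 in transgenic, 38.9 ± 1.91 in knockout-labelled and 38.8 ± 1.72 in control mice (SD, n = 5, 5 and 6). It was 33.5 to 37.4 in transgenic, 36.8 to 41.2 in knockout-labelled and 36.1 to 40.9 in control mice, and the ranges overlapped. The 10 most abundant of the other Trav genes held 54.4% of their summed TPM over the 16 libraries. By duplicated block, genes with d in the symbol summed to 27.9 ± 1.14 CPM in transgenic, 33.9 ± 4.84 CPM in knockout-labelled and 37.8 ± 6.56 CPM in control mice. Genes with n summed to 14.5 ± 2.13 CPM in transgenic, 17.3 ± 1.85 CPM in knockout-labelled and 16.8 ± 4.53 CPM in control mice. Both sums depend on how reads of identical d and n copies were split. Reads of Trav6d-7 and Trav6n-7 were counted on the d gene, those of Trav14d-1 and Trav14n-1 mostly on the n gene. The sums therefore do not measure the use of either block. The 10 segments with dv in the symbol, which can serve alpha or delta chains, summed to 28.5 ± 2.49 CPM in transgenic, 30.5 ± 2.24 CPM in knockout-labelled and 35.3 ± 5.37 CPM in control mice.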
